A study of Mus musculus with 18 samples.

Results

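The 10 mRNAs described here are Eef1a1, Eef1b2, Eef1d, Eef1g, Eef2, Pabpc1, Tpt1, Npm1, Nap1l1 and Gnb2l1, the last of which is now called Rack1. They were chosen by name, as elongation factors and other well-known TOP mRNAs that are not ribosomal proteins, out of 20683 genes in the deposited count table. All 30 of their feature rows (leader, coding sequence and 3' UTR of each) and all 57 of their positions among the 9025 kept harringtonine positions were used. The samples were erythroblasts, the precursors of red blood cells, from fetal livers of mice of the strain FVB/n x C57BL/6, and every group carried the genotype Trp53 -/-. They were cultured in StemPro supplied with dexamethasone, stem cell factor and erythropoietin (Epo), and were either left untreated or exposed to tunicamycin at 2.5 ug/ml for 1.5 h. Tunicamycin blocks N-glycosylation in the endoplasmic reticulum, and the submitters used it to bring about phosphorylation of the initiation factor eIF2. Each of the 2 conditions was measured in 3 libraries of total RNA, 3 of footprints after cycloheximide (100 ug/ml for 5 min), which freezes ribosomes where they stand, and 3 of footprints after harringtonine (2 ug/ml), which holds them at start sites. The labels do not say whether the 3 libraries of a group came from separate cultures or embryos, so the tests measure the spread between these libraries, which may be technical.

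TOP stands for terminal oligopyrimidine tract: the capped end of such an mRNA begins with a C followed by an unbroken run of C and U. Most TOP mRNAs encode ribosomal proteins or factors that work with the ribosome, and their translation is known to be switched together, on in growing cells and off when the kinase mTOR is inhibited, with the RNA-binding protein Larp1 bound to the tract. Phosphorylation of eIF2 is a separate brake, which lowers the supply of initiator tRNA for most mRNAs and favours a few with upstream reading frames.

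The RNA totals were 12.9 to 49.0 M (mega) reads, coding-sequence (CDS) footprints 4.53 to 6.65 M, and reads at kept harringtonine positions 0.447 to 0.648 M. All 10 erythroid markers reached 5 CPM (reads per M reads of the library total) or more in RNA, and the erythroid sum was 5212 to 5526 CPM. Hepatocyte, macrophage, endothelial and stromal, and neutrophil and monocyte markers all stayed under 5 CPM, and Vcam1, Ly6g, Ttr and Fgb were at 0. The megakaryocyte sum was 113 to 119 CPM untreated and 94.4 to 104 CPM under tunicamycin, nearly all of it Gp5, and its part in the results was not tested. The mast cell sum (553 to 640 CPM) was led by Kit, which erythroblasts also express. In that list 2 of the 5 markers reached 5 CPM or more, so Kit was not the only source of the sum. The part of mast cells in the results was not tested. Trp53 itself kept 98.6 to 124 CPM of RNA in these libraries. The sources used here do not describe the allele, so these reads do not check the genotype.

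The tract that gives the group its name can be looked for at an annotated start of 6 of the 10 genes, those with an entry in the RefSeq promoter table (GRCm38.p6). Eef1d, Eef1g, Pabpc1 and Npm1 are named only. Each window below runs from 10 bases before the start used in that table through the 20 bases that begin with it, on the strand of the gene. Capitals mark every run of a C followed by at least 4 bases that are each C or T. For Nap1l1 that start (base 111473227) lies inside the gene, 345 bases after the start of the gene given with its values further on, and for the other 5 the starts are the same.
Gnb2l1, chr11:48800350-48800379, plus strand: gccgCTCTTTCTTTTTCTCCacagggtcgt
Nap1l1, chr10:111473217-111473246, plus strand: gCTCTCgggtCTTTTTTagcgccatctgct
Eef1a1, chr9:78481705-78481734, minus strand: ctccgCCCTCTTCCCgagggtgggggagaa
Eef2, chr10:81176621-81176650, plus strand: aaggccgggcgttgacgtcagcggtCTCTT
Eef1b2, chr1:63176821-63176850, plus strand: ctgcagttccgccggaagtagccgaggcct
Tpt1, chr14:75845246-75845275, plus strand: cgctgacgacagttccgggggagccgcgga
In Nap1l1 a run of 7 pyrimidines opened at the first base of the table's start, and a shorter run of 5 began 9 bases upstream of it. In Gnb2l1 the run was 16 long and lay across the first base, where a C stood. In Eef1a1 a run of 10 began 5 bases upstream, and in Eef2 a run of 7 began at base 16 and continued past the window. The windows of Eef1b2 and Tpt1 held none. A run of this kind lay in the same window of 39.1% of the 32851 promoters in the table, and at the first base of 2.51%. Of the 66 promoters of ribosomal protein genes, 65.2% held a run and 19.7% held it at the first base. Annotated starts can differ from those used in these cells by several bases, and a window without the letters says nothing of the mRNA's real end.

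Fitted log2 changes of RNA lay between -0.02 (Gnb2l1) and 0.19 (Npm1). None of the 10 passed the test in RNA (adjusted p under 0.05), against 0.15% of the 10643 genes tested that passed upward and 0% downward; 2 of the 10 and 1324 of all genes had an unadjusted p under 0.05, and DESeq2 also called none of the 10. The fitted log2 change was positive for 9 of the 10 and for 5165 of the 10643 genes, with a median of 0.09 beside -0.005 over all genes tested. RNA CPM of Eef1a1, Eef2, Npm1 and Nap1l1 was higher in every tunicamycin library than in any untreated one, a pattern that 8.4% of all genes showed. Pairing the libraries by replicate number raised the number of genes passing from 16 to 410 (2.66% up and 1.19% down), still with none of the 10 among them.

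Fitted log2 changes of coding-sequence footprints spread more widely, from -0.79 (Pabpc1) to 0.35 (Tpt1). In 6 of the 10 mRNAs (Eef1a1, Eef1b2, Eef1g, Eef2, Pabpc1 and Gnb2l1) the tunicamycin library was the lower one in each of the 3 numbered pairs, as it was for 23.9% of all genes tested. None of the 10 passed when libraries were compared without pairing; the share of the 9265 genes tested that passed was 1.78% upward and 0.799% downward. An unadjusted p under 0.05 was reached by 5 of the 10 and by 1542 genes in all, and DESeq2 called 2 of the 10 (Eef1g and Gnb2l1). Same-numbered libraries of the 2 conditions deviated together, though in footprints only weakly for pair 2 (correlation 0.115, beside 0.486 and 0.378). The labels give the numbers but state no pairing, and the numbers were taken as pairs. With the pairing 4 of the 10 fell (Eef1a1, Eef1g, Pabpc1 and Gnb2l1) and 1 rose (Npm1), while 3.92% of all genes fell and 5.63% rose. Without regard to pairs, every tunicamycin library lay below every untreated one for 4 of the 10 (Eef1a1, Eef1b2, Eef1g and Gnb2l1), as for 11.8% of all genes, and above for Npm1, as for 10.1%. The median log2 change without pairing was -0.18 over the 10 and 0.002 over all genes.

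Translational efficiency sets CDS footprints against RNA. Without pairing none of the 10 passed, beside 0.739% of 10154 genes upward and 0.335% downward; 5 of the 10 and 1487 of all genes had an unadjusted p under 0.05, and DESeq2 called Eef1g alone. With the pairing, efficiency fell for Eef1a1, Eef1g, Eef2, Pabpc1 and Gnb2l1, while 3.8% of all genes fell and 3.74% rose. The median log2 change without pairing was -0.26 over the 10 and -0.02 over all genes. Scaling sets the typical gene near 0 in these 3 comparisons, so a shift shared by every mRNA is invisible in them, and in bulk libraries fewer cells of a type and less RNA per cell cannot be told apart.

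**Figure D1:**
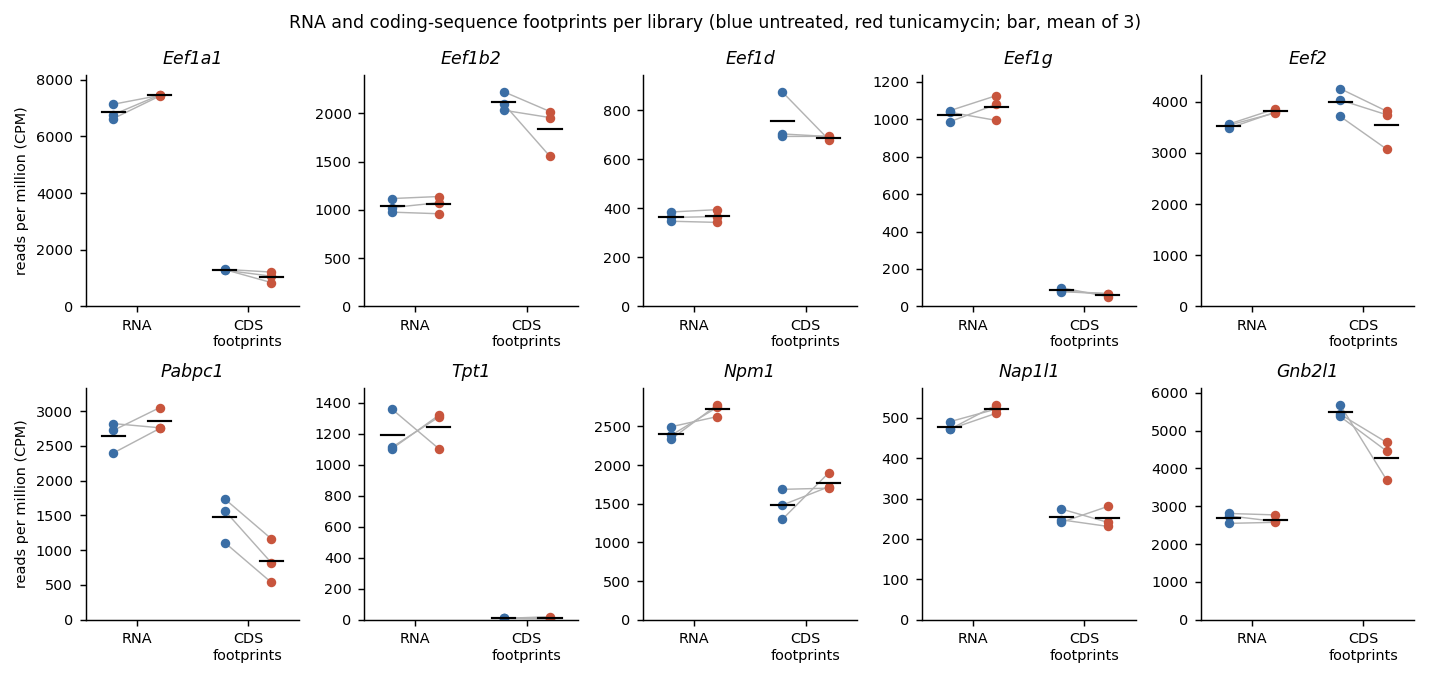
RNA reads and CDS footprints of each of the 10 mRNAs, in reads per M reads (CPM) of the library's RNA or CDS total, per library (blue untreated, red tunicamycin; grey lines join libraries with the same replicate number, black bars are means of 3). Footprints of Pabpc1 averaged 1471 CPM untreated and 841 CPM under tunicamycin while its RNA was 2647 and 2854 CPM.

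**Figure D2:**
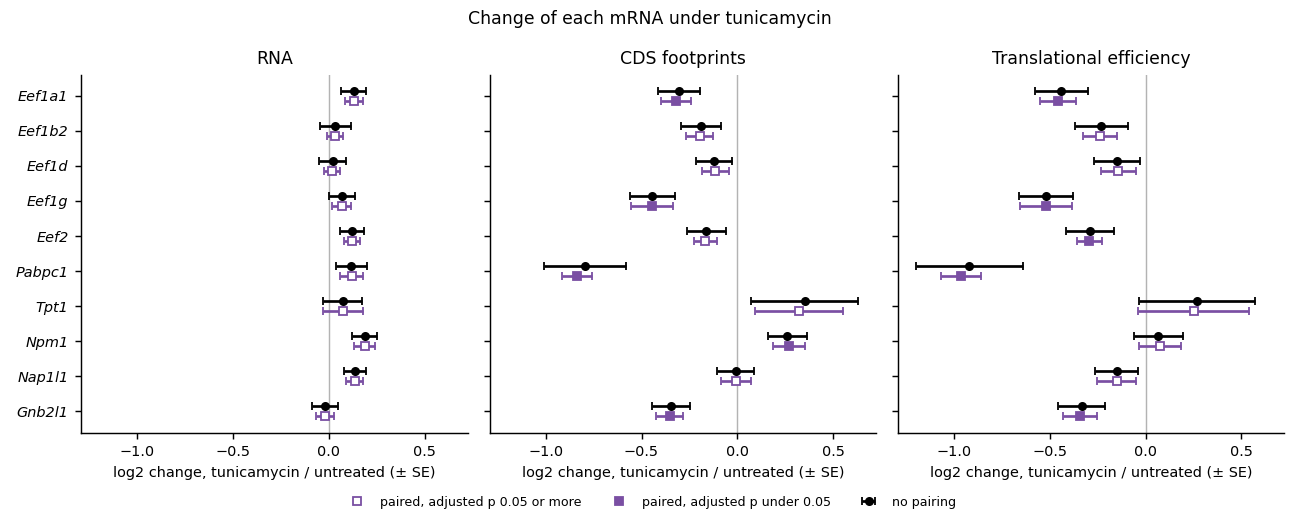
Log2 change (tunicamycin over untreated) with its standard error from edgeR for RNA, CDS footprints and translational efficiency, without pairing (black circles) and with libraries paired by replicate number (purple squares, filled where adjusted p is under 0.05). Filled squares appear for 5 mRNAs in footprints and 5 in translational efficiency, and for none in RNA.

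Among the elongation factors, Eef1a1 encodes the eEF1A subunit that carries aminoacyl-tRNA to the ribosome (chr9:78478453-78481724). Its RNA stood at 6772, 6633 and 7138 CPM in untreated libraries 1 to 3 and at 7466, 7430 and 7450 CPM under tunicamycin. Its CDS footprints stood at 1278, 1309 and 1299 CPM untreated and at 1067, 1211 and 842 CPM under tunicamycin. The RNA values of the treated libraries all lay above, and their footprints all below, those of the untreated ones, and the third treated library had the fewest footprints. The footprint change without pairing was -0.30 ± 0.11 (log2, SE; adjusted p = 0.175) or, without tunicamycin replicate 3, -0.17 (adjusted p = 0.568), and with pairing -0.32 ± 0.08 (adjusted p = 0.0136). The log2 difference in translational efficiency was -0.44 ± 0.14 without pairing (adjusted p = 0.127) and -0.46 with it (adjusted p = 0.0099). RefSeq lists pseudogenes of Eef1a1 and Eef2, and the sources used here do not say how reads that match several places were counted, so the levels of both are uncertain.

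Eef1b2, Eef1d and Eef1g encode the beta, delta and gamma subunits of eEF1B, the complex that exchanges GDP for GTP on eEF1A. Eef1g (chr19:8967041-8978180) had footprints of 78.6, 81.1 and 99.3 CPM untreated and 67.3, 68.6 and 52.7 CPM under tunicamycin, with all treated libraries below all untreated ones. Its RNA averaged 1023 ± 31.9 and 1066 ± 67.1 CPM (SD, n = 3 each). The untreated ratio of footprint CPM to RNA CPM was 0.0844, and only 0.826% of 8109 genes with at least 5 CPM in both assays were lower. Without the counting rule for reads that match several places, the footprint level of Eef1g is uncertain too. The footprint change of Eef1g was -0.44 ± 0.12 (adjusted p = 0.0612, with pairing 0.0153), and that of its efficiency -0.52 ± 0.14 (adjusted p = 0.0845, with pairing 0.0275).

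Eef1b2 (chr1:63176831-63180486) also had every treated library below every untreated one, with footprints of 2032, 2224 and 2099 CPM against 1956, 2018 and 1553 CPM. The gap between the nearest values was small beside the spread within the groups, and the change of -0.19 ± 0.10 did not pass (adjusted p = 0.380, with pairing 0.0859). Without tunicamycin replicate 3 it was -0.079, and the change in efficiency was then -0.12. Eef1d (chr15:75894796-75909784) had footprints of 702, 692 and 873 CPM untreated and 692, 693 and 679 CPM under tunicamycin. Its groups overlapped, and pair 3 differed most (log2 -0.36, beside -0.02 and 0.00 in the other 2); without untreated replicate 3 the fitted change was -0.028. The 3 subunits of this complex gave fitted footprint changes from -0.44 to -0.12, of which that of Eef1g alone passed with pairing; differences between the subunits were not tested.

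Eef2 encodes the translocase eEF2, which moves the ribosome along by a codon (chr10:81176631-81182509). Its footprints were 4254, 4032 and 3713 CPM untreated and 3814, 3744 and 3073 CPM under tunicamycin, and its RNA 3539, 3479 and 3560 CPM against 3778, 3794 and 3857 CPM. Treated libraries 1 and 2 lay just above the lowest untreated one in footprints, while in each numbered pair the treated library was lower (log2 -0.16, -0.11 and -0.27). The footprint change of -0.16 ± 0.10 did not pass either way (adjusted p = 0.460, with pairing 0.10), and without tunicamycin replicate 3 it was -0.069. Set against RNA, the change of efficiency was -0.29 ± 0.12 (adjusted p = 0.279) and passed with pairing (adjusted p = 0.0127).

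Pabpc1, the cytoplasmic poly(A)-binding protein, which coats mRNA tails and binds eIF4G at the cap, had the lowest fitted footprint change of the 10 (chr15:36595658-36609581). Footprints were 1737, 1568 and 1108 CPM in untreated libraries 1 to 3 and 1165, 821 and 538 CPM under tunicamycin. RNA was 2723, 2397 and 2820 CPM untreated and 3050, 2751 and 2760 CPM under tunicamycin. In both groups library 1 had the most footprints and library 3 the fewest, so that the groups overlapped while each pair differed by -0.58, -0.93 and -1.04 (log2). Without pairing the change was -0.79 ± 0.21 (adjusted p = 0.0603), and with pairing -0.84 ± 0.08 (adjusted p = 1.24e-06). Efficiency gave -0.92 ± 0.28 (adjusted p = 0.115) and -0.96 ± 0.11 (adjusted p = 0.00015). Leaving out 1 library mattered for this gene: without tunicamycin replicate 1 the unpaired footprint change was -1.12 (adjusted p = 0.000132), and without untreated replicate 3 it was -0.98 (adjusted p = 0.0373). In the other 4 such fits it did not pass, with -0.56 at the least (without tunicamycin replicate 3, adjusted p = 0.224), and DESeq2 on all libraries gave an adjusted p of 0.312.

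Gnb2l1 encodes RACK1, a scaffold protein on the small ribosomal subunit (chr11:48800360-48806241). Its footprints stood at 5376, 5435 and 5685 CPM untreated and at 4463, 4692 and 3702 CPM under tunicamycin, with a wide gap between the groups. Its RNA overlapped fully, at 2702 ± 137 CPM untreated and 2649 ± 107 CPM under tunicamycin. The footprint change was -0.35 ± 0.10 (adjusted p = 0.0727, with pairing 0.00485), and without tunicamycin replicate 1 it passed unpaired as well (adjusted p = 0.0403). The log2 difference in its efficiency was -0.33 ± 0.12 (adjusted p = 0.195, with pairing 0.0260).

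Npm1, the nucleolar chaperone nucleophosmin, which takes part in ribosome assembly, went the other way (chr11:33152498-33164142). RNA was 2384, 2333 and 2495 CPM untreated and 2749, 2782 and 2627 CPM under tunicamycin, and footprints were 1686, 1483 and 1300 CPM against 1701, 1719 and 1901 CPM. In both assays all treated libraries lay above all untreated ones, although in footprints the nearest 2 values were almost equal. The footprint change of 0.26 ± 0.10 did not pass without pairing (adjusted p = 0.209) and passed with it (adjusted p = 0.0452); without untreated replicate 3 the unpaired value was 0.15. Set against RNA little was left, with an efficiency change of 0.07 ± 0.13.

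Nap1l1, a chaperone that carries histones H2A and H2B, differed least in footprints (chr10:111472882-111498150). They were 274, 247 and 241 CPM untreated and 241, 231 and 281 CPM under tunicamycin, a fitted change of -0.01 ± 0.10 with overlapping groups. RNA of Nap1l1 was 478 ± 10.8 CPM untreated and 522 ± 10.3 CPM under tunicamycin, with no overlap (log2 0.13 ± 0.06, adjusted p = 0.384).

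Tpt1 encodes the translationally controlled tumour protein TCTP (chr14:75845256-75848303). It had 1191 ± 143 CPM of RNA untreated and 1242 ± 120 CPM under tunicamycin, but its CDS row held only 62, 55 and 61 footprints in the untreated libraries and 33, 86 and 48 under tunicamycin. RefSeq lists several pseudogenes of Tpt1, and footprints that match more than one place may have been counted differently from longer RNA reads; the sources used here do not give the counting rule. The fitted footprint change of 0.35 ± 0.28 turned to -0.17 without tunicamycin replicate 2, so no direction can be given for this gene.

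In untreated cells the ratio of CDS footprint CPM to RNA CPM ran from 0.00765 ± 0.0010 for Tpt1 and 0.0844 ± 0.011 for Eef1g to 2.07 ± 0.30 for Eef1d. Eef1a1 had 0.189, Nap1l1 0.532, Pabpc1 0.556, Npm1 0.620, Eef2 1.13, Gnb2l1 2.03 and Eef1b2 2.04. The median over the 10 was 0.588, and over the 8109 genes with at least 5 CPM in both assays 0.925. These ratios are not per length, since coding lengths were not used here, and they carry the uncertainty on reads shared with pseudogenes; they describe rows of the table and give no order of translation among the 10.

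The leader, the part of an mRNA ahead of its start codon, took a larger share of footprints under tunicamycin across the whole table. Leader reads were 4.90% ± 0.74 (SD, n = 3) of leader plus CDS footprints in untreated libraries and 8.73% ± 1.44 under tunicamycin. The ratio of leader to CDS footprints rose in 5 of the 10 mRNAs (Eef1a1, Eef1g, Eef2, Pabpc1 and Gnb2l1), with 36.1% of the 8736 genes tested passing upward and 0.0687% downward. The median log2 change was 1.04 over the 10 and 0.90 over all genes, so a passing call here is common. With the pairing Eef1b2 rose too (0.62 ± 0.20, adjusted p = 0.0137), when 38.9% of all genes passed upward. Scaled so that the typical leader stands at 0 (leader counts against leaders, CDS counts against CDS, a choice made after seeing the data), Eef1a1 alone stayed up, Npm1, Nap1l1 and Tpt1 passed downward, and 2.46% of all genes rose and 3.17% fell.

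Eef1a1 had 32, 16 and 20 leader reads untreated and 52, 47 and 60 under tunicamycin, beside mean CDS footprints of 1295 and 1040 CPM. As a share this was 0.375%, 0.188% and 0.239% against 0.972%, 0.849% and 1.38%, 3.99-fold between the means, with a wide gap. The log2 change of its ratio was 1.99 ± 0.33 (adjusted p = 5.09e-05), and 1.07 ± 0.25 relative to the typical leader (adjusted p = 0.00128).

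For Eef2 the leader share was 2.79%, 2.03% and 2.64% untreated and 5.06%, 5.47% and 7.49% under tunicamycin, on 1999 and 3254 leader reads in all. The groups did not overlap, as in 48% of all genes, and the ratio rose by 1.32 ± 0.26 (adjusted p = 0.000307) or, relative to the typical leader, stood at 0.39 (adjusted p = 0.138). Gnb2l1 was close to it, with 1.28%, 0.713% and 1.11% untreated, 2.39%, 2.16% and 3.39% under tunicamycin, and a change of 1.39 ± 0.27 (adjusted p = 0.00029; relative to the typical leader 0.46, adjusted p = 0.0667). In both mRNAs the third tunicamycin library was highest, as it was for the table as a whole (10.4%, beside 7.86% and 7.94%).

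Pabpc1 and Eef1g rose less firmly. The leader share of Pabpc1 was 2.15% ± 0.74 untreated and 3.54% ± 0.80 under tunicamycin with overlapping groups, and its ratio rose by 0.76 ± 0.28 (adjusted p = 0.0337), a call lost on leaving out either of untreated replicates 1 and 2, or either of tunicamycin replicates 2 and 3 (adjusted p 0.073 to 0.182) and with DESeq2 (adjusted p = 0.147); its lowest value with 1 library left out was 0.50, without untreated replicate 2. Eef1g rested on 16 untreated and 31 tunicamycin leader reads, with a change of 1.81 ± 0.52 (adjusted p = 0.00675) that missed the threshold without tunicamycin replicate 3 (adjusted p = 0.0961) and with DESeq2 (adjusted p = 0.0528). Eef1d had 3 leader reads untreated and 9 under tunicamycin in all, too few to read its change of 2.02 ± 0.90, which became 4.89 (adjusted p = 0.0152) without untreated replicate 3.

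Npm1 and Nap1l1 had large leader shares before treatment, while that of Eef1b2 differed from the 4.90% of the table as a whole by less than its SD. Npm1 went from 16.4% ± 4.5 to 20.7% ± 2.0, Nap1l1 from 16.8% ± 2.0 to 20.7% ± 3.2, and Eef1b2 from 5.71% ± 1.95 to 8.40% ± 2.47 (SD, n = 3), all with overlapping groups. The log2 differences in their ratios were 0.45 ± 0.27 (adjusted p = 0.176), 0.36 ± 0.26 (adjusted p = 0.265) and 0.62 ± 0.28 (adjusted p = 0.0801). Single libraries moved each of them: without untreated replicate 2 the value was 0.18 for Npm1 and 0.31 for Eef1b2, without tunicamycin replicate 3 it was 0.20 for Nap1l1 and 0.37 for Eef1b2, and without untreated replicate 3 Eef1b2 passed (0.86, adjusted p = 0.0374). Relative to the typical leader these became -0.48 for Npm1 (adjusted p = 0.0409), -0.57 for Nap1l1 (adjusted p = 0.0147) and -0.31 for Eef1b2, so their direction depends on the scaling.

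For Tpt1 the leader row held 61, 57 and 59 reads untreated and 33, 84 and 46 under tunicamycin, nearly the numbers on its CDS row, and the share stayed at 49.9% ± 0.90 and 49.4% ± 0.53. The sources used here do not say whether a read that lies on both features was counted for both, so the leader share of Tpt1 cannot be read as ribosomes ahead of the start codon.

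**Figure D3:**
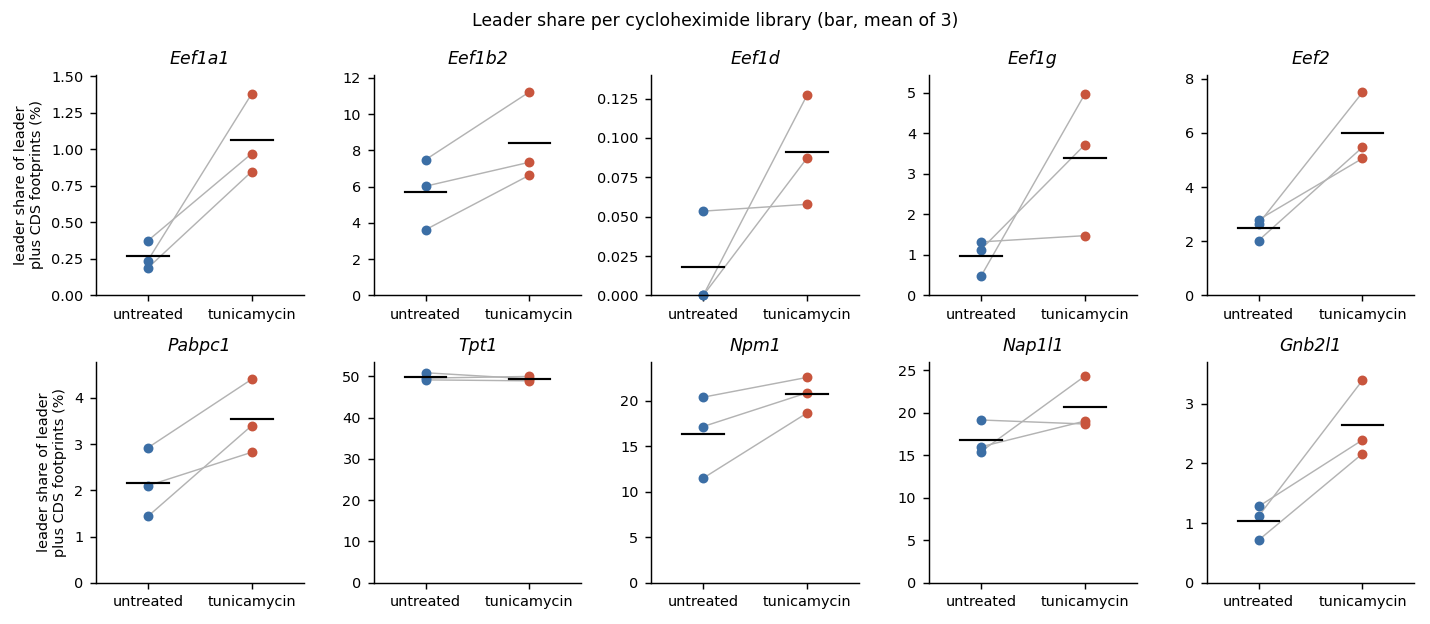
Share of leader plus CDS footprints that lay on the leader, in percent, per cycloheximide library of each mRNA (blue untreated, red tunicamycin; grey lines join same-numbered libraries, bars are means of 3; each panel has its own scale). Eef1a1, Eef1d, Eef1g, Eef2 and Gnb2l1 show no overlap between the groups, with tunicamycin above, as 48% of the 8736 genes tested do. Eef1d does so on 3 leader reads untreated and 9 under tunicamycin in all. Tpt1 stays near 50% in both groups.

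**Figure D4:**
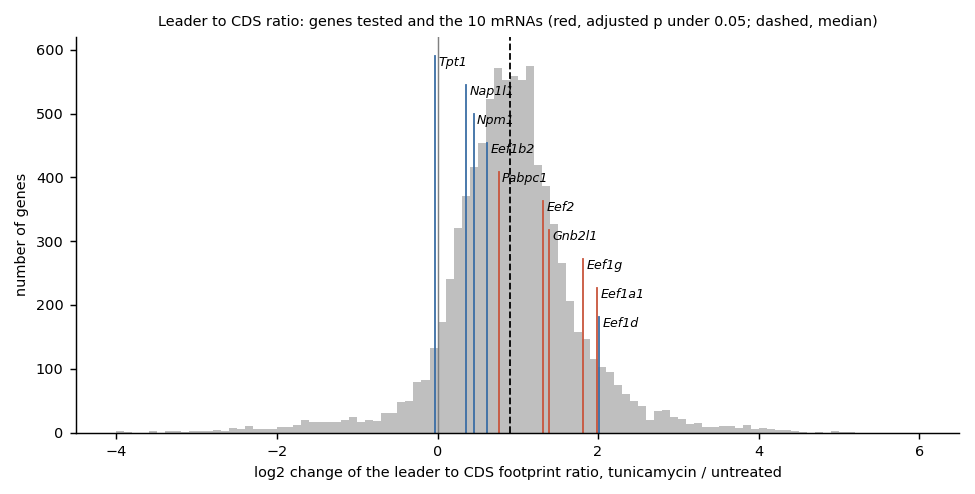
Number of genes at each log2 change of the leader to CDS footprint ratio over the 8736 genes tested (grey), with vertical lines at the 10 mRNAs (red where adjusted p is under 0.05, blue otherwise; line height only separates the names). The dashed median of all genes is at 0.90; Eef1a1, Eef1d, Eef1g, Gnb2l1 and Eef2 lie to its right and the other 5 to its left.

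Footprints on the 3' UTR were few. Eef1g had none in any library, so 9 of the 10 were tested, and 0 of them passed in the 3' UTR to CDS ratio, beside 0.291% of 8247 genes upward and 0.097% downward (unadjusted p under 0.05: 1 of the 9 and 527 genes; DESeq2: 0 of the 9). The 1 was Eef1a1, on 2 untreated and 8 tunicamycin reads (adjusted p = 0.429). Eef1d had the most in untreated cells, 46, 68 and 76 reads against 33, 27 and 31 under tunicamycin. The log2 difference in its ratio was -0.49 ± 0.27 (adjusted p = 0.799). Npm1 followed with 40, 50 and 26 against 20, 53 and 52 reads, which overlapped.

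Harringtonine reads mark candidate start sites, and the deposited files keep single positions with at least 20 reads in the 3 libraries of 1 condition. All 10 mRNAs had kept positions: 11 each in Pabpc1 and Npm1, 9 each in Eef1b2 and Gnb2l1, 4 each in Eef1d and Eef2, 3 each in Eef1g and Tpt1, 2 in Eef1a1 and 1 in Nap1l1. The median gene with a position had 2, and 0.564% of such genes had 9 or more. Distances below are genomic, introns included, from the annotated gene start, and codons at these positions were not read.

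In Eef2 4 positions held 11216 reads, at 60, 61, 1042 and 1045 nt, of which the first took 36.3%. In Eef1a1 91.9% of 2270 reads lay at 1 position, chr9:78480630, 1094 nt into the gene, and the other position was at 1147 nt. Nap1l1 had all 2752 reads at chr10:111481305, 8423 nt into the gene. Gnb2l1 had its highest position at 125 nt with 32.8% of 1024 reads, and a lower one at 63 nt; the other 7 were spread from 1316 to 5271 nt. Npm1 spread 2747 reads over positions from 1079 to 7112 nt, of which the highest, at 1216 nt, held 23.1%.

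Summed over positions, none of the 10 passed between the conditions, beside 0.0272% of 3681 genes upward and 0% downward (unadjusted p under 0.05: 1 of the 10 and 133 genes; DESeq2: 0 of the 10). The one with an unadjusted p under 0.05 was Pabpc1, with 349, 401 and 260 CPM of kept reads untreated and 261, 233 and 107 under tunicamycin. The highest treated value was just above the lowest untreated one, and the change was -0.76 ± 0.31 (adjusted p = 0.998). Gnb2l1, at 365 ± 117 and 270 ± 58.6 CPM, and Eef2, at 3728 ± 689 and 3146 ± 1525, had overlapping groups.

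Counted where 1 library held at least 3 times the CPM of the next in its group, 1 tunicamycin library stood apart at 4 of the 57 positions, another tunicamycin library at 1 and 1 untreated library at 3. At chr9:78480630 of Eef1a1 the first of these held 952 reads, beside 155 and 108 in the other tunicamycin libraries and 474, 157 and 239 in the untreated ones. At chr11:33162926 of Npm1 it held 396 reads, beside 40 and 33, and 89, 39 and 38 untreated. At chr1:63177262 of Eef1b2 it held 58 reads, beside 9 and 5, and 19, 6 and 8 untreated, and the remaining position was in Pabpc1. Without it the fitted change per gene went from 0.19 to -0.94 for Eef1a1, from 0.03 to -0.26 for Npm1 and from 0.0054 to -0.094 for Eef1b2, so none of the 3 has a direction.

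Position by position, tunicamycin lay below untreated in all libraries at 9 of the 57 positions and above at 1, where 5.06% and 6.23% of all kept positions did. Those below were 4 in Pabpc1, 2 in Gnb2l1 and 1 each in Eef1b2, Tpt1 and Npm1, and the one above was in Npm1. A position was kept if either condition alone had enough reads. The Eef1b2 position, at 941 nt (8, 7 and 8 reads untreated, 5, 7 and 2 under tunicamycin), was kept through its untreated reads only. So was that of Pabpc1 at 1134 nt (7, 5 and 10 against 6, 6 and 2). The rule thus favours such differences, and these counts can be read only beside all kept positions, which passed the same rule. After positions within 10 nt were merged, 31 sites of these mRNAs were tested and 0 passed, beside 0% of 5123 sites in either direction (unadjusted p under 0.05: 3 of the 31 and 177 of all sites; DESeq2: 0 of the 31 and 1 of all sites). The 3 were in Pabpc1 at 8615 nt (-1.10 ± 0.44), Gnb2l1 at 1397 nt (-1.002 ± 0.40) and Eef1a1 at 1147 nt (0.99 ± 0.44), each at an adjusted p of 0.999.

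**Figure D5:**
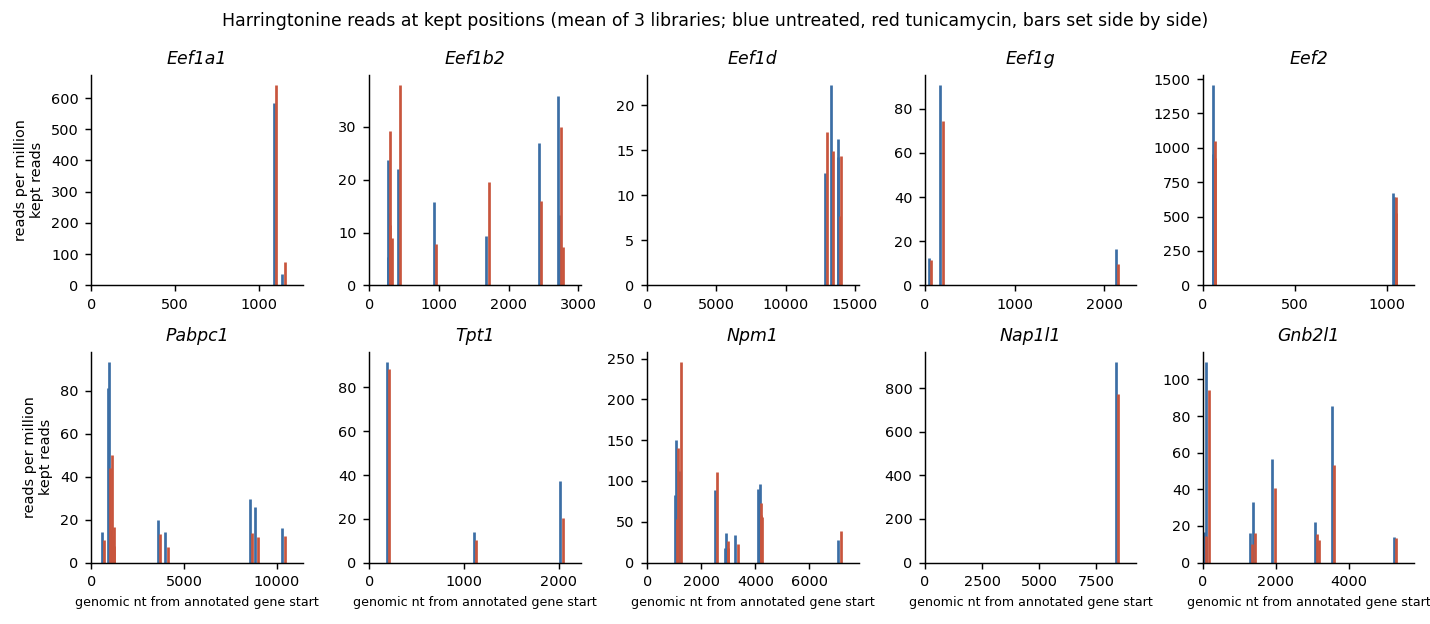
Mean harringtonine reads per M kept reads (CPM; 3 libraries, blue untreated, red tunicamycin) at each kept position against its genomic distance in nt from the annotated gene start; the 2 colours are drawn side by side for the same position and no error is shown. Eef1a1, Eef1g and Nap1l1 have 1 dominant position, and the reads of Pabpc1, Npm1, Eef1b2 and Gnb2l1 are spread along the gene.

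The other TOP mRNAs that are not ribosomal proteins, 15 genes such as those of eIF3 subunits, gave 0 passing in RNA, footprints or efficiency without pairing, with median log2 changes of 0.04, -0.05 and -0.12. Eif3f, a subunit of the initiation factor that gathers on the small ribosomal subunit, had 1259 footprint CPM untreated and 1027 under tunicamycin (-0.28 ± 0.09, adjusted p = 0.128). Eif3h, of the same complex, had 527 and 431 CPM (-0.28 ± 0.09, adjusted p = 0.129). With pairing 0 passed in RNA, 1 of 14 rose in footprints (Naca) and 2 fell (Eif3f, adjusted p = 0.00643, and Eif3h, adjusted p = 0.0126), and 3 of 15 fell in efficiency (Eif3h, Eif4b and Cct4). Among ribosomal proteins, the largest class of TOP mRNAs, 3 of 45 tested rose in footprints and 4 fell, with a median of -0.22, and 2 of 76 rose in efficiency. Only 45 of the 76 had enough footprints for the footprint test. The efficiency test admitted genes on RNA and footprint counts together, so a gene could enter it through RNA reads alone. Rpl38, for one, had 0.15 footprint CPM untreated beside 357 CPM of RNA. Of all genes without pairing, 1.78% rose and 0.799% fell in footprints, and 0.739% rose in efficiency. With pairing 5 ribosomal proteins rose and 18 fell in footprints, 4 rose and 6 fell in efficiency, and 1 of 75 fell in RNA (Rpl38). Of all genes with pairing, 5.63% rose and 3.92% fell in footprints, 3.74% and 3.8% in efficiency, and 2.66% and 1.19% in RNA. Rps18 fell from 285 to 189 CPM (-0.58 ± 0.12, adjusted p = 0.0210), and Rps2 and Rpl37a were also among those that fell. Rps25 rose from 55.3 to 88.9 CPM (0.70 ± 0.10, adjusted p = 0.00214), as did Rpl41 and Rplp1.

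Elongation, termination and recycling factors outside the 10 gave 1 that rose and 1 that fell of 23 tested, in footprints and in efficiency alike, and 0 in RNA. Of all genes 1.78% rose and 0.799% fell in footprints, and 0.739% and 0.335% in efficiency. The fitted change was negative for 17 of the 23 in footprints and 16 in efficiency, beside 4583 of 9265 and 5356 of 10154 genes. An unadjusted p under 0.05 was reached by 5 of the 23 in each, beside 1542 and 1487 of all genes. With pairing 2 rose and 1 fell in both, the second to rise being Eef2k, the kinase that inhibits eEF2 (footprints 0.37 ± 0.07, adjusted p = 0.00354). Of all genes with pairing, 5.63% rose and 3.92% fell in footprints, and 3.74% and 3.8% in efficiency. Dph3, which takes part in making diphthamide, the modified histidine of eEF2, rose from 44.5 to 72.1 footprint CPM (0.71 ± 0.14, adjusted p = 0.0155; efficiency 0.84 ± 0.16, adjusted p = 0.0252). Hbs1l, which with Pelo rescues stalled ribosomes, fell from 182 to 135 CPM (-0.42 ± 0.09, adjusted p = 0.0236; efficiency -0.49 ± 0.10, adjusted p = 0.0306). Of the genes listed as relatives of the 10 by family or name, not all of them close paralogs, 6 were tested. None passed in RNA, footprints or efficiency without pairing. With pairing Pabpn1 and Gnb2 fell in footprints, beside 3.92% of all genes.

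The leader to CDS ratio rose in some genes of each of these lists, beside 36.1% of all genes tested: in 6 of 12 other TOP mRNAs tested, 19 of 60 ribosomal proteins, 10 of 22 elongation, termination and recycling factors and 3 of 5 relatives by family or name. Their medians were 1.095, 0.92, 1.06 and 0.86 (log2). With pairing 20 ribosomal proteins passed and the other 3 counts were the same, beside 38.9% of all genes.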

How the data were processed

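Cycloheximide footprints per leader, CDS and 3' UTR and RNA reads per gene were deposited by the authors as raw counts, and harringtonine files as counts at single positions. Per the submitters' processing notes, STAR, HTSeq and edgeR were used with mm10 (GRCm38); no version, strand setting or rule for multiply matching reads is given in the sources used here. Groups follow the labels. CPM are counts scaled to the library's total (RNA, CDS, leader plus CDS, or kept harringtonine reads).

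Counts were tested in edgeR 4.0.16 (R 4.3.3; TMM, filterByExpr with minimum count 10 and minimum total 15, glmQLFTest, Benjamini-Hochberg over all features). Adjusted p-values come from this quasi-likelihood test except where a sentence names DESeq2. Translational efficiency is the interaction of assay and treatment over 12 libraries. Leader and 3' UTR ratios are the interaction of feature and treatment with a term per library and 1 shared TMM factor for both features. Scripts were tested on simulated data. Alternatives used DESeq2 1.42.0, limma 3.58.1 voom, RLE scaling, no filter, a replicate block, or 1 library fewer.

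Deviations of same-numbered untreated and tunicamycin libraries from their group means correlated at 0.588, 0.542 and 0.285 in RNA (9172 genes) and 0.486, 0.115 and 0.378 in CDS footprints (6435 genes). Libraries with different numbers gave -0.574 to 0.263 in RNA and -0.410 to 0.044 in CDS footprints. The 0.263, of untreated 2 with tunicamycin 3, was close to the 0.285 of pair 3, and pair 2 was weak in footprints. The numbers are from the labels, every correlation of same-numbered libraries is over 0.1, and paired values are therefore given where they change a call.

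The 10 mRNAs and the gene lists were chosen with earlier results of these data known. All 10 are described; of each list, the 2 genes with the smallest p per comparison and those passing could be named; the result of 1 gene is not reported here.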

Additional observations from a re-analysis of the deposited data

How the results depend on the processing

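With the replicate block, genes passing went from 16 to 410 in RNA, 239 to 885 in CDS footprints and 109 to 766 in translational efficiency, and mRNAs passing among the 10 from 0 to 5 in footprints and from 0 to 5 in efficiency; beyond the calls given in the report the block changed none among the 10 mRNAs. No paired analysis was possible for harringtonine because its columns could be matched to a condition but not to a numbered sample. Without the filter on low counts the counts were 122, 573 and 403 genes, with 4 of the 10 in footprints and 3 in efficiency. DESeq2 gave 97 genes in RNA and 390 in efficiency, 2 and 1 of the 10 in footprints and efficiency, 3 of the 10 and 1298 genes instead of 3157 in the leader ratio, 0 genes instead of 32 in the 3' UTR ratio, 2 genes for harringtonine instead of 1, and 1 site instead of 0. RLE scaling and voom changed no call of the 10. Scaling each feature on its own left 492 genes passing in the leader ratio and turned Eef1b2 to -0.31, Pabpc1 to -0.16, Npm1 to -0.48 and Nap1l1 to -0.57; the scaling sets the typical leader to 0 by construction.

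Leaving out 1 library at a time gave 3 to 26 genes in RNA, 58 to 431 in footprints (0 to 3 of the 10), 17 to 299 in efficiency (0 to 2), 1371 to 2757 in the leader ratio (3 to 7, lowest without tunicamycin replicate 3), 12 to 38 in the 3' UTR ratio, 0 to 2 harringtonine genes and 0 to 4 sites. Log2 changes that crossed 0 on leaving out a library ranged in RNA from -0.033 to 0.094 for Eef1b2, -0.044 to 0.063 for Eef1d and -0.064 to 0.0091 for Gnb2l1; in footprints from -0.17 to 0.63 for Tpt1 and -0.093 to 0.053 for Nap1l1; in efficiency from -0.25 to 0.53 for Tpt1 and -0.052 to 0.17 for Npm1; and in the leader ratio from -0.047 to 0.0015 for Tpt1. For harringtonine they ranged from -0.94 to 0.63 for Eef1a1, -0.15 to 0.31 for Eef1b2, -0.64 to 0.44 for Eef1d, -0.67 to 0.037 for Eef2, -0.48 to 0.061 for Tpt1 and -0.26 to 0.30 for Npm1. The causes of these shifts were not tested. Depth limits the leaders of Eef1d and Eef1g, all 3' UTR counts and most single harringtonine positions.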

Other observations

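Regulators of TOP mRNAs and of poly(A)-binding protein were listed as well, 22 genes, all of them tested. Eif4ebp2, one of the proteins that hold the cap-binding factor eIF4E until mTOR phosphorylates them, fell in CDS footprints from 77.7 to 56.2 CPM (-0.45 ± 0.11, adjusted p = 0.0422), and without pairing it was the only one of the 22 to pass in RNA, footprints or efficiency. Of all genes 0.799% fell in footprints without pairing. Larp1, which binds the tract, had 134 footprint CPM untreated and 104 under tunicamycin (-0.36 ± 0.14, adjusted p = 0.194) with 552 and 586 CPM of RNA. In RNA the smallest p among them belonged to Ddit4, a stress-induced inhibitor of mTOR signalling, at 51.8 and 79.1 CPM (0.64 ± 0.12, adjusted p = 0.0970), followed by Sesn2, another such inhibitor, at 13.0 and 18.1 CPM (0.46 ± 0.14, adjusted p = 0.283). With libraries paired by replicate number Ddit4 (0.62 ± 0.06, adjusted p = 0.00185) and Sesn2 (0.49 ± 0.09, adjusted p = 0.0262) rose in RNA, beside 2.66% of all genes, Larp1 (-0.35 ± 0.07, adjusted p = 0.00518) and Eif4ebp2 fell in footprints, beside 3.92%, and Larp1 and Ddit4 fell in efficiency, beside 3.8%.

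Over the 6 RNA and 6 cycloheximide libraries, with log2 CPM centred within each assay, single mRNAs followed the mean of the other 9 to very different degrees. Pearson's r, given as a description, was 0.96 for Eef1a1, 0.86 for Eef2, 0.85 for Gnb2l1, 0.77 for Eef1b2 and 0.73 for Eef1g. It was 0.57 for Pabpc1, 0.28 for Eef1d, -0.10 for Tpt1, -0.20 for Nap1l1 and -0.49 for Npm1. Of 8102 other genes with at least 5 CPM in both assays, those whose profile was most like the mean of the 10 were Mark3 (0.92), Dnajc2 (0.91), Rpl4 (0.91), Fam160b2 (0.91) and Limd1 (0.90). Rpl4 is a protein of the large ribosomal subunit and Dnajc2 a chaperone that binds ribosomes. These points share libraries and treatment, and none of the 5 genes passed in RNA, footprints or efficiency without pairing. With pairing Mark3, Dnajc2 and Rpl4 fell in footprints, beside 3.92% of all genes, and in efficiency, beside 3.8%. The 5 were picked for their likeness to the 10 in the same libraries, so these calls are not a separate result.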
